A study of Mus musculus with 71 samples.

Results

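Mouse oocytes grown in culture from embryonic stem cells labelled as Tbpl2 knockout were compared with wild-type oocytes of the same age. The Tbpl2 knockout is represented by 2 of the 71 samples of the series, the 2 libraries labelled as Tbpl2 knockout at day 13 of in vitro differentiation, and the wild type of day 13 by another 2. The stem cell lines were of mixed C57BL/6 X 129 background and, in wild type and knockouts alike, carried Blimp1-Venus with Stella-CFP, fluorescent reporters of germ cells. They were turned into primordial germ cell-like cells, purified by cell sorting and aggregated with female gonadal somatic cells of E12.5 embryos into reconstituted ovaries. All groups were exposed to retinoic acid in the aggregates and later to ICI182780, an estrogen receptor antagonist, and the oocytes were collected by sorting cells positive for Stella-CFP. Polyadenylated RNA was sequenced with directional libraries. The genotype labels name the reporters only, so which part of Tbpl2 was edited and how many clones were used are not known here. The other groups set beside the knockout are the wild type of day 11 (2 libraries), the Nobox knockout of day 13 (2 libraries) and all 14 other knockouts of day 13 (28 libraries, Nobox among them). The labels do not say that the libraries of a group came from separate cultures. The p-values therefore reflect only how far libraries of the same group lay apart, a spread shared over all 21 in vitro groups and not taken from the compared groups alone.

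TBPL2, also called TBP2 or TRF3, is a paralog of the TATA-binding protein TBP that vertebrates make in the growing oocyte. In mouse oocytes TBP protein declines as growth begins, and TBPL2 takes its place at core promoters together with TFIIA, outside the TFIID complex. During the growth phase the oocyte builds its egg coat, stores messenger RNAs and proteins for the embryo and exchanges signals with granulosa cells, the somatic cells that surround it. Before that phase it has passed through meiotic prophase, in which the cohesin and recombination genes described below act.

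The knockout libraries did not lack Tbpl2 RNA. Tbpl2 lies on chromosome 2 at 24071721 to 24096595 (minus strand, GRCm38), and its level was 210.2 and 212 TPM in the wild-type libraries against 59.8 and 70.6 in the knockout libraries. TPM, the deposited unit, is a level corrected for transcript length and scaled to the same total in every library. Both knockout libraries lay below both wild-type libraries (log2 change -1.69 ± 0.486, adjusted p = 0.00556; limma on log2(TPM + 1), Benjamini-Hochberg adjustment over all genes tested). Adding 0.1 in place of 1 to TPM left the size of the change alike (log2 change -1.70) but ended this call (adjusted p = 0.0777). The p-values draw on the spread of all in vitro groups, some of them near 0 for Tbpl2, such as the Dynll1 knockout (2.7 and 0.26 TPM). A value per gene does not separate an edited exon from the rest, so the remaining level is not a measure of TBPL2 protein. The wild type of day 11 held 67.0 and 64.1 TPM and the Nobox knockout 2.53 and 4.46 TPM, so the knockout level of day 13 stood near that of younger wild-type oocytes and above that of Nobox knockouts. Group means of the 14 other knockouts ranged from 0 to 234 TPM.

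Oocyte and somatic markers showed that the 4 libraries differed in more than 1 kind of RNA. Every library held the oocyte markers Zp1, Zp3, Gdf9, Padi6, Npm2, Zar1, Ddx4 and Sohlh1. Ddx4, a germ-cell RNA helicase, was at 399.6 and 394 TPM in wild type and 313 and 368 TPM in the knockout. The summed level of the 27 granulosa and gonadal somatic genes was 81.1 and 83.5 TPM in wild type and 1341 and 1459.6 TPM in the knockout. Of those 26 that could be tested, 21 were called higher and none lower. Calls needed a log2 change of 1 or more in size together with an adjusted p under 0.05, a threshold that 22.8% of the 12306 genes tested passed upwards and 6.35% downwards.

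Among the granulosa genes, Inha, which encodes the inhibin alpha subunit, was at 13.5 and 11.7 TPM in wild type and 369 and 389 TPM in the knockout (log2 change 4.81 ± 0.134, adjusted p = 3.24e-19). Amhr2, the receptor for anti-Müllerian hormone, was at 6.61 and 4.1 against 173 and 197 TPM, and the steroid enzyme gene Hsd3b1 at 0.46 and 0.070 against 102 and 118 TPM. Fshr was at or near 0 in all 4 libraries. Of 19 genes of stroma, matrix and endothelium 12 rose, among them Col6a1, Col3a1 and Acta2, and their summed level went from 108 and 109.8 to 1169 and 1148 TPM (12 higher and 1 lower once libraries were rescaled as described below). Macrophage and blood genes summed to 92.0 and 75.8 TPM in wild type and 45.3 and 40.6 TPM in the knockout, with Ptprc and Ctss at 0 throughout. None of these genes was called higher. C1qb, a complement gene that made up most of the wild-type sum, fell from 80.8 and 66.1 to 15.6 and 14.1 TPM, so the lower sum is that of 1 gene. Of the 15 genes 10 were at 0 in each wild-type library, and 7 and 3 in the knockout libraries. The median log2 change of the list was 0.55. The wild type of day 11 had summed granulosa levels of 1793 and 1794 TPM and the Nobox knockout 1397 and 1440.2 TPM. What part these somatic levels have in the changes described below was not tested. In bulk libraries fewer oocytes and less RNA of a gene per oocyte cannot be told apart.

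**Figure D1:**
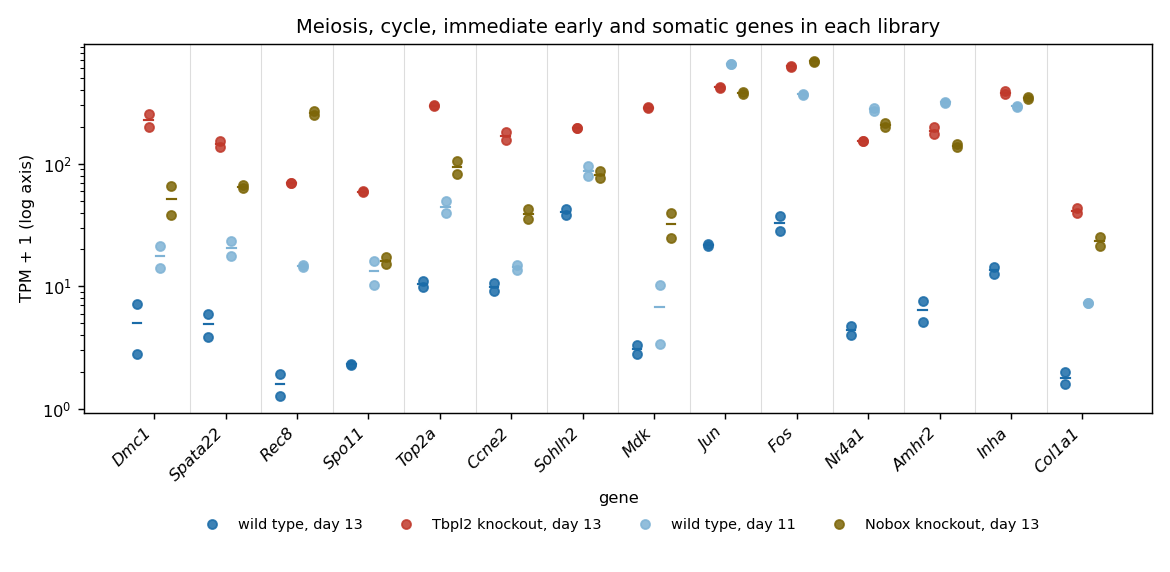
Level (TPM + 1, log axis) of 14 genes that were higher in the Tbpl2 knockout, for both libraries of the wild type of day 13, the Tbpl2 knockout, the wild type of day 11 and the Nobox knockout. Points are libraries and short bars their means. Dmc1 reached 199 and 253 TPM in the knockout against 1.8 and 6.16 TPM in the wild type of the same day.

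Between the knockout and wild type 3591 of 12306 genes were called (29.2%), 2809 higher (22.8%) and 782 lower (6.35%). The median of all genes was a log2 change of 0.36, and after rescaling each library by the median of ratios it was 0.03. On that scale 1911 genes were higher (15.7%) and 1401 lower (11.5%) of 12195 tested, so the balance of rises and falls depends on the scale. The 10 most abundant genes took 12.8% and 12.6% of the TPM of the genes used in the wild-type libraries and 4.18% and 4.22% in the knockout libraries. Among the genes used, nearly all on chromosomes 1 to 5 and 10 to 19, Padi6, Zp3 and Uchl1 led the wild-type libraries. These leading genes all fell. Genes at 1 TPM or more numbered 8910 and 8939 in wild type and 9960 and 9965 in the knockout. Lists are counted over the members that were measured and tested here, and counts on the rescaled values against wild type are given where they differ. Each count is to be read beside the shares of all genes given here.

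**Figure D2:**
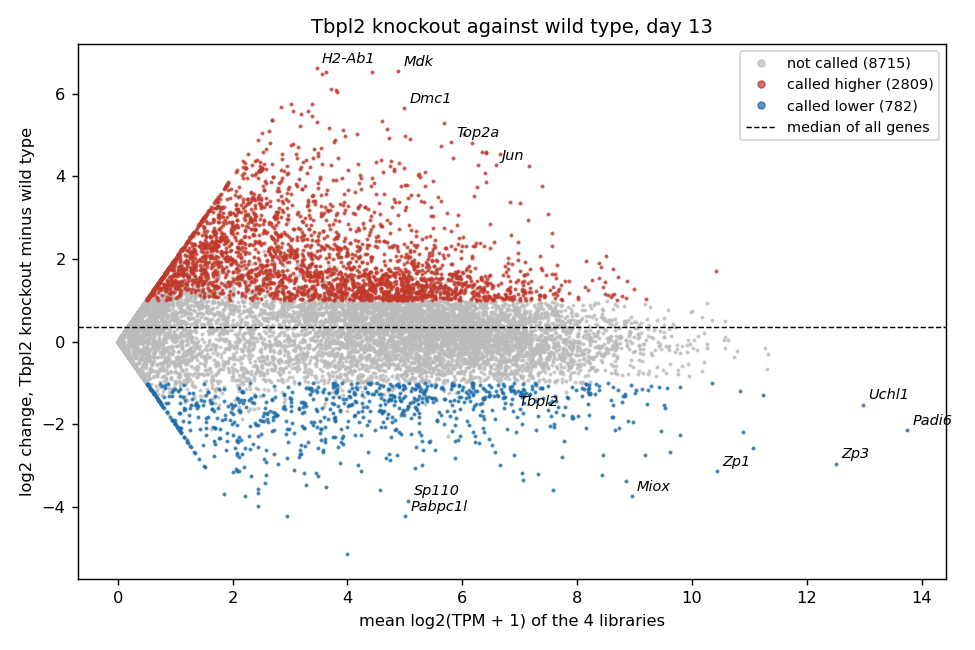
Log2 change (Tbpl2 knockout minus wild type, day 13) of each of 12306 genes against its mean log2(TPM + 1) over the 4 libraries. Red points were called higher (2809), blue lower (782), grey were not called, and the dashed line is the median of all genes (0.36). The most abundant genes on the right, Padi6, Uchl1 and Zp3, lie below the line.

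The egg coat was among the groups with the lowest levels relative to wild type. Of 9 egg coat and fertilization genes tested, from a list of 17, 7 fell and 1 rose, with a median log2 change of -2.96. Zp3, the zona pellucida glycoprotein that sperm bind, was at 16422 and 16226 TPM in wild type and 2108 and 2088 TPM in the knockout (log2 change -2.96 ± 0.111, adjusted p = 8.48e-17). Zp1, which cross-links zona filaments, was at 4179.6 and 4077 against 498 and 439 TPM (log2 change -3.14 ± 0.428, adjusted p = 1.12e-06). Astl, the oocyte protease that cleaves ZP2 after fertilization, was at 1527 and 1487 against 255 and 199 TPM (log2 change -2.74 ± 0.308, adjusted p = 4.83e-08). For these 3 genes the library values of each group lay close together and the groups did not overlap. The oocyte-secreted genes Oosp1, Oosp2 and Oosp3 fell as well, Oosp1 from 645 and 694 to 50.5 and 58.2 TPM. Lingo2 fell at a low level (4.36 to 1.43 mean TPM, log2 change -1.14), and Ovgp1, which encodes an oviduct glycoprotein, was the member that rose (4.55 to 25.5 mean TPM, log2 change 2.26). Summed over the list, wild-type libraries held 23302 and 23018 TPM and knockout libraries 2993 and 2867 TPM.

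Of 12 listed genes of the subcortical maternal complex, a protein assembly under the egg membrane needed for cleavage of the embryo, 4 were measured here and all 4 fell. The others were not analysed here. Padi6 had the highest level of the genes used in the wild-type libraries. It was at 29352 and 28462 TPM there and at 6527 and 6532 TPM in the knockout (log2 change -2.15 ± 0.121, adjusted p = 1.94e-13). Tle6 went from 4076 and 4009 to 918 and 865 TPM and Zbed3 from 1499.8 and 1493 to 329 and 333 TPM. The 4 log2 changes, -2.18 for Tle6, -2.17 for Zbed3, -2.15 for Padi6 and -1.92 for Nlrp4f, lay close to each other.

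Among secreted factors, 7 of 14 fell and 5 rose. Gdf9, the oocyte signal that drives granulosa growth, was at 1976 and 1897 TPM in wild type and 379 and 423 TPM in the knockout (log2 change -2.27 ± 0.348, adjusted p = 5.74e-06). Fgf8 (39.4 to 4.71 mean TPM, log2 change -2.94), Tgfb2 (71.3 to 8.9 mean TPM, log2 change -2.87) and Bmp6 (56.2 to 19.3 mean TPM, log2 change -1.49) also fell, and the remaining 3 falls were the Oosp genes named above. The rises were of another kind. Kitl, the granulosa ligand of the oocyte receptor KIT, went from 3.2 and 4.42 to 72.1 and 73.5 TPM, and Mdk, a heparin-binding growth factor, from 1.83 and 2.3 to 283 and 288 TPM (log2 change 6.55 ± 1.16, adjusted p = 4.21e-05). Igfbp2, Inhbb and Lefty1 rose too, Lefty1 from a wild type listed at 0. Kit itself was at 528 mean TPM in wild type and 309 in the knockout and was lower on the rescaled values only (-0.77 as deposited). On the rescaled values the list held 4 higher and 8 lower, and Lefty1 missed the size threshold.

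Genes for the storage of maternal messenger RNA divided. Of 24 tested 7 fell and 3 rose (3 higher and 9 lower after rescaling). Among all genes 22.8% were higher and 6.35% lower (15.7% and 11.5% after rescaling), so the rises did not exceed that share. Pabpc1l, the embryonic poly(A)-binding protein, had the lowest log2 change of all genes named by the rule for extremes. Its level was 131 and 146 TPM in wild type and 6.77 and 6.14 TPM in the knockout (log2 change -4.23 ± 0.288, adjusted p = 5.87e-12). Zar1, which holds maternal transcripts in the oocyte cytoplasm, was at 1537 and 1453 against 165 and 124 TPM (log2 change -3.38 ± 0.211, adjusted p = 1.19e-12). Eif4e1b, an oocyte form of the cap-binding protein, was at 1051 and 1069 against 111 and 112 TPM (log2 change -3.24 ± 0.776, adjusted p = 0.00118). With 0.1 added to TPM its change was alike in size (log2 change -3.25) but not called (adjusted p = 0.0801). Patl2, Igf2bp2, Lsm14b and Ybx2 were the other falls. Zcchc11, a terminal uridylyl transferase, rose from 4.44 and 5.07 to 79.4 and 74.2 TPM, and the RNA-binding protein gene Dazl rose as well (279.7 to 769.8 mean TPM, log2 change 1.46), with the deadenylase subunit gene Cnot6.

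**Figure D3:**
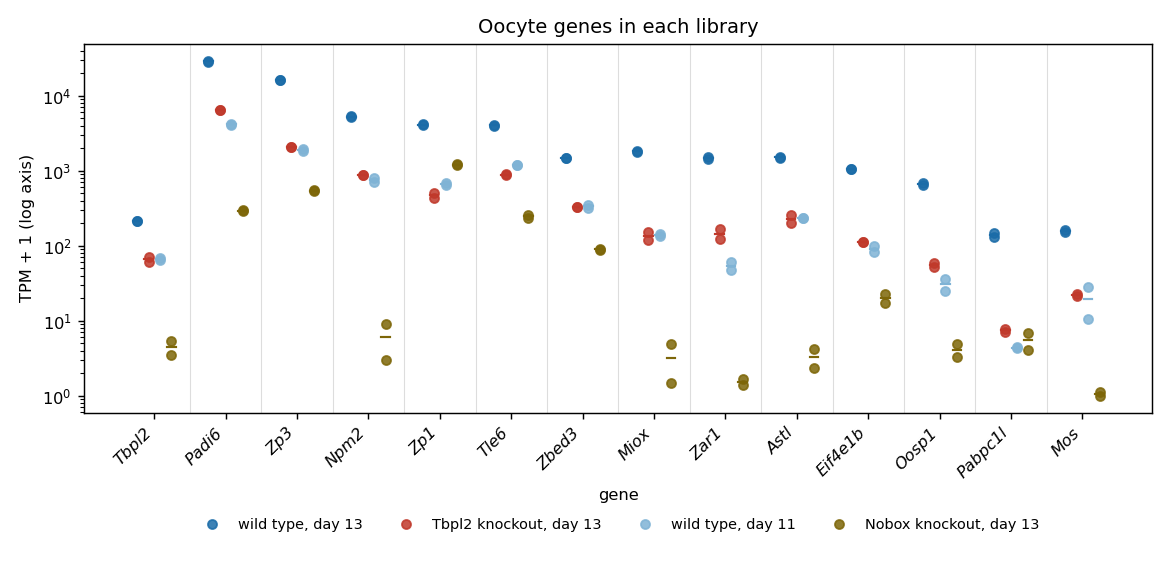
Level (TPM + 1, log axis) of Tbpl2 and 13 oocyte genes in both libraries of the wild type of day 13, the Tbpl2 knockout, the wild type of day 11 and the Nobox knockout. Points are libraries and short bars their means. In all 14 the Tbpl2 knockout lies below the wild type of day 13, and for Zar1 the Nobox knockout is lower still (0.39 and 0.65 TPM against 165 and 124 TPM).

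The rule for the lowest genes named 12, of which Pabpc1l, Oosp1, Zar1 and Eif4e1b are given above. Miox, an inositol oxygenase gene, was at 1826 and 1793 TPM in wild type and 151 and 118 TPM in the knockout (log2 change -3.75 ± 0.622, adjusted p = 1.84e-05). Sp110, a nuclear body protein gene, was at 132 and 119 against 11.0 and 5.45 TPM (log2 change -3.85 ± 0.767, adjusted p = 0.000168). Sebox, an oocyte homeobox gene, was at 13.6 and 18.9 against 0.23 and 0.33 TPM, and the oogenesin gene Oog4 at 33.6 and 29.6 against 1.06 and 3.11 TPM. Khdc1c, Cd200r3 and Drd3 were each at 1.21 TPM or less in the knockout libraries, and Pga5 was listed at 0 in both of them.

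Of 18 genes of the oogenesin and Oas1 families that could be tested, 10 fell and 2 rose. Members of these families are near-identical copies, and how the authors counted reads shared by several copies is not known, so the level of each member is uncertain. Oog1, Oog2, Oog3 and Oog4 fell together with Oas1c, Oas1d, Oas1e, Oas1h, Oas3 and Pramef12. Pramel1 rose from 8.79 and 6.66 to 116 and 120.3 TPM (log2 change 3.78 ± 0.27, adjusted p = 1.43e-11) and Oasl2 from 0.155 to 4.24 mean TPM.

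Transcription factors of the oocyte, most of them chosen because the series targets them in other knockouts, held 7 falls and 2 rises among 19 tested (1 higher and 11 lower after rescaling). Zfp57, which keeps imprints methylated, fell from 584 and 592 to 137 and 135 TPM, and Lhx8 (459 to 195 mean TPM, log2 change -1.24), Stat3 (492 to 204 mean TPM, log2 change -1.27), Sall4, Ell3 and Kdm1b fell. Tbpl2 is the remaining fall. Sohlh2 rose from 37.4 and 41.7 to 196 and 194 TPM (log2 change 2.28 ± 0.135, adjusted p = 4.95e-13), while its partner Sohlh1, at 908 and 911 TPM in wild type and 552 and 584 TPM in the knockout, was called lower on the rescaled values only (adjusted p = 0.195 as deposited). Taf4b, the gonadal TFIID subunit, rose on the deposited scale only.

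Genes of oocyte chromatin and DNA methylation moved in both directions. In the chromatin list 5 of 21 fell and 4 rose (2 higher and 5 lower after rescaling). Among all genes 22.8% were higher and 6.35% lower (15.7% and 11.5% after rescaling), so the rises did not exceed that share. Npm2, the histone chaperone nucleoplasmin, went from 5299 and 5199.9 to 867 and 884 TPM (log2 change -2.58 ± 0.379, adjusted p = 3.37e-06), and Uhrf1, which recruits the maintenance methyltransferase, from 899.7 and 862 to 216 and 196 TPM (log2 change -2.09 ± 0.0927, adjusted p = 2.22e-15). Spin1 fell as well, and Npm1, the nucleophosmin of most cell types, rose from 213 and 156 to 624 and 648 TPM. Among 12 methylation genes 4 fell, Zfp57, Uhrf1, Dnmt3l and the demethylase gene Kdm1b, and 3 rose, Tet1, Nsd1 and Tdg. Dnmt3a was at 65.5 mean TPM in wild type and 34.5 in the knockout, past the threshold on the rescaled values only, where 6 of the list were lower.

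General factors of core promoters were read next, TFIID subunits and RNA polymerase I and III factors among them. Of 34 core promoter factors, Tbpl2 itself among them, 6 were higher and 3 lower, with a median log2 change of 0.53 beside 0.36 for all genes. The 3 lower were Tbpl2, the knockout's own target, Gtf2a1l and Taf1a, and 6.35% of all genes were lower. After rescaling 2 were higher and 3 lower. Gtf2a1l, the germ-cell form of the large TFIIA subunit, fell from 124 and 114 to 27.6 and 24.2 TPM (log2 change -2.15 ± 0.474, adjusted p = 0.000497). With 0.1 added to TPM its change was alike in size (log2 change -2.19) but not called (adjusted p = 0.0753). Taf1a, a subunit of the RNA polymerase I selectivity factor, fell from 133 and 129.9 to 54.0 and 47.2 TPM (log2 change -1.36 ± 0.186, adjusted p = 1.07e-06). Tbp was at 42.1 and 46.2 TPM in wild type and 60.0 and 76.6 TPM in the knockout, groups that did not overlap, and missed the threshold (log2 change 0.61 ± 0.296, adjusted p = 0.0948). The third paralog, Tbpl1, was at 13.8 and 10.8 against 29.4 and 39.8 TPM, a rise on the deposited scale (log2 change 1.41 ± 0.236, adjusted p = 1.91e-05) that fell just short of the size threshold after rescaling. Taf6 (82.1 and 71.6 against 236 and 236 TPM), a TFIID subunit, and Ccnh (21.6 and 20.2 against 72.4 and 86.1 TPM), the cyclin of the TFIIH kinase, rose on both scales. Taf2, Taf4b and Gtf2h3 rose on the deposited scale.

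Of 37 genes of RNA polymerase II and elongation 7 rose and 4 fell (3 higher and 6 lower after rescaling). Among all genes 22.8% were higher and 6.35% lower (15.7% and 11.5% after rescaling). The rises of this list did not exceed these shares, and its falls lay somewhat above them. Its median log2 change was 0.335 beside 0.36 for all genes, so the members named below do not stand for the list. Polr2a, the largest subunit, went from 79.9 and 75.4 to 277 and 255 TPM, whereas Polr2j went from 2761 to 1204 mean TPM (log2 change -1.20). Eaf2, a partner of the ELL elongation factors, rose from 1.58 and 1.6 to 31.6 and 33.0 TPM and Hexim1, an inhibitor of the kinase P-TEFb, from 13.1 and 12.2 to 65.4 and 58.9 TPM. Ell3 and the TFIIS gene Tcea3 (174 and 182 against 36.6 and 39.2 TPM) fell.

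Because TBP family proteins are known for contact with the TATA box, the promoters of the called genes were read for the letters TATAAA between 45 and 15 bases before the annotated start, on the strand of the gene. The shorter run TATAA, which every TATAAA contains, was read in the same window. RefSeq promoter sequences (GRCm38.p6) were matched by symbol for 9145 of the 12306 genes tested. TATAAA stood in that window in 18 of 569 genes that were lower (3.16%, Wilson 95% interval 2.01 to 4.94%). The count was 52 of 2071 that were higher (2.51%, 1.92 to 3.28%), and 2.24% of all promoters held it. For TATAAA the share of the lower genes lay within the interval of the higher genes, and the reverse. TATAA stood in the window in 36 genes that were lower (6.33%, 4.6 to 8.63%) and 77 that were higher (3.72%, 2.99 to 4.62%), beside 3.83% of all promoters. Each share lay outside the interval of the other, while the intervals themselves overlapped narrowly. The intervals take genes as independent, which was not checked, and the shares were described, not tested. With calls made on the rescaled values the TATAA shares were 4.95% (3.79 to 6.45%) of lower and 4.37% (3.41 to 5.58%) of higher genes, each within the interval of the other. Most genes that fell in the knockout had neither run of letters in the window, Padi6, Tle6, Zar1 and Oosp1 among them. Of the 12 lowest genes 9 had a promoter sequence, and 2 of these held TATAA, Miox and Sp110. Among the 12 highest it was 1 of 9, Gadd45g.

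Shown here are 6 promoters, with the motif where it was found: the 60 bases before the start, 5′ to 3′ on the strand of the gene, in lower case with TATAAA or TATAA in capitals. Tgfb2 is the only member of the egg coat, growth factor, subcortical complex, storage and chromatin lists with a sequence that fell and held TATAAA in the window, and the other 5 were chosen after their values were seen.
Tgfb2: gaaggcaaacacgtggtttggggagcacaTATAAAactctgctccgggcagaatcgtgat
Oog3: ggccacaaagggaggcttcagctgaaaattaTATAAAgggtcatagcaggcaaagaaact
Miox: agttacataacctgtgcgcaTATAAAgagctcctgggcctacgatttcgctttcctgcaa
Sp110: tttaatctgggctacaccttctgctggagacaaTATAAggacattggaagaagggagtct
Zbed3: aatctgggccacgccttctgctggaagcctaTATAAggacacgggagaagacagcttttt
Zp3: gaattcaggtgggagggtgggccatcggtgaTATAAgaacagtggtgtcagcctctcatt
They lie at chr1:186705990-186706049 (minus strand, Tgfb2), chr4:144162652-144162711 (minus strand, Oog3), chr15:89334413-89334472 (plus strand, Miox), chr1:85603892-85603951 (minus strand, Sp110), chr13:95323545-95323604 (plus strand, Zbed3), chr5:135980045-135980104 (plus strand, Zp3). The motif begins 27 bases before the start in Sp110, 29 in Zp3, Zbed3 and Oog3, 31 in Tgfb2 and 40 in Miox. The match of letters is a description of these windows and not of what binds there.

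Genes of meiotic prophase had the opposite pattern to the egg coat. Of 24 synaptonemal complex and early meiosis genes 19 rose and none fell, with a median log2 change of 2.15 (15 higher and 1 lower after rescaling). Dmc1, the meiotic recombinase, was at 1.8 and 6.16 TPM in wild type and 199 and 253 TPM in the knockout (log2 change 5.65 ± 0.311, adjusted p = 1.14e-13). Rec8, the meiotic cohesin, was at 0.28 and 0.94 against 68.7 and 68.1 TPM (log2 change 5.46 ± 0.953, adjusted p = 3.33e-05). Spo11, which starts meiotic DNA breaks, was at 1.3 and 1.32 against 57.9 and 58.4 TPM (log2 change 4.68 ± 0.703, adjusted p = 4.39e-06). In each of these the wild-type libraries were low, at most 6.16 TPM, and the groups did not overlap. Spata22 and Meiob, partners in recombination, the histone methyltransferase Prdm9, the axis genes Hormad1 and Hormad2 and the crossover gene Msh5 rose too, and Msh4 on the deposited scale only. Sycp3, an axis protein of the synaptonemal complex, was at 889.8 mean TPM in wild type and 1700.0 in the knockout, just under the size threshold (0.93). The summed list held 1783 and 1863 TPM in wild type and 4684 and 4915 TPM in the knockout. The mean of the knockout, 4799.6 TPM, was above that of each of the 14 other knockouts of day 13 (1529 to 4033 TPM).

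Early germ-cell genes moved in both directions. Of 27 germ cell identity genes 7 rose and 3 fell (7 higher and 6 lower after rescaling), with a median log2 change of 0.06 beside 0.36 for all genes, of which 22.8% were higher. The rises were Dmrt1 from 8.26 and 9.62 to 112 and 107 TPM (log2 change 3.48 ± 0.318, adjusted p = 1.46e-09), Dnd1 from 4.67 and 1.75 to 46.4 and 29.7 TPM, Dazl, Dppa4, Fkbp6, Rnf17 and Prdm14. The piRNA pathway genes Tdrd5, Tdrd9 and Henmt1 fell, and Ddx4, Mael and Piwil2 were not called. Among 12 pluripotency genes 5 rose and 4 fell (5 higher and 5 lower after rescaling). Sox2 went from 0.12 and 0 to 41.1 and 30.5 TPM (log2 change 5.10 ± 0.43, adjusted p = 3.45e-10) and Klf4 from 1.5 and 1.91 to 25.7 and 17.9 TPM, while Pou5f1 (702 to 341 mean TPM, log2 change -1.04), Tcl1, Sall4 and Esrrb fell. Pou5f1 and Sox2, which act together in stem cells, thus differed in direction. In a list of 9 markers of primordial germ cells and oogonia Dnd1 and Dppa4 rose and Pou5f1, Sall4, Tcl1 and Mybl2 fell (2 higher and 5 lower after rescaling).

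Replication and cell cycle genes held 11 rises and 1 fall among 32 tested (6 higher and 5 lower after rescaling). Of all genes 22.8% were higher and 6.35% lower (15.7% and 11.5% after rescaling), so on the rescaled values the list lay near all genes by count. Its median log2 change was 0.76 beside 0.36 for all genes (0.32 beside 0.03 after rescaling). The members named below are those that rose most and do not stand for the list. Among the rises, Top2a, a topoisomerase that untangles replicated DNA, went from 10.1 and 8.89 to 293 and 299 TPM (log2 change 4.82 ± 0.159, adjusted p = 4.3e-18). Ccne2, a cyclin of S phase entry, went from 8.17 and 9.65 to 156 and 181 TPM, and Cdk4 from 42.7 and 36.5 to 414 and 409 TPM. The helicase subunit genes Mcm3 and Mcm7 rose on both scales, and Mcm4 and Mcm6 on the deposited one. The mitotic genes Ccna2 (49.8 to 78.4 mean TPM, log2 change 0.65), Kif11 (36.8 to 55.9 mean TPM, log2 change 0.59) and Tpx2 (58.2 to 92.7 mean TPM, log2 change 0.67) were not called, and E2f2 fell. The summed granulosa markers, 81.1 and 83.5 TPM in wild type and 1341 and 1459.6 TPM in the knockout, moved in the same direction, and dividing somatic cells were not separated from oocytes here.

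Of 24 genes of meiotic arrest and resumption 4 fell and 5 rose (3 higher and 6 lower after rescaling). Among all genes 22.8% were higher and 6.35% lower (15.7% and 11.5% after rescaling). The rises of this list lay near these shares and its falls above them. Mos, the kinase that holds the egg in metaphase, was at 159 and 151 TPM in wild type and 22.1 and 20.1 TPM in the knockout (log2 change -2.82 ± 0.51, adjusted p = 5.21e-05). Cdc25b, which activates CDK1 at resumption (145 to 44.7 mean TPM, log2 change -1.69), Gja4, the oocyte connexin (310.3 to 113 mean TPM, log2 change -1.45), and Gnas fell. Cdc20 rose from 27.4 and 30.9 to 156 and 140.1 TPM, and Npr2, the granulosa receptor whose cyclic GMP keeps oocytes in arrest, from 1.09 and 1.23 to 32.4 and 24.3 TPM. Gja1, the connexin of granulosa cells, rose from 6.45 and 6.31 to 148 and 125 TPM, so Gja4 and Gja1 moved in opposite directions. Of 11 genes of gap junctions and cell contact 5 rose, Gja1, Gjc1, Cdh2 and Pcdh1 among them, and 2 fell, Gja4 and Myo10. Growth signalling genes held 1 rise (Kitl) and 1 fall (Prkaa2, 55.7 to 15.5 mean TPM, log2 change -1.79) among 17 (1 higher and 4 lower after rescaling).

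Immediate early genes, which respond within minutes to growth signals or handling, rose together. Of 20 immediate early and heat shock genes 15 rose and 1 fell, with a median log2 change of 3.20 (14 higher and 1 lower after rescaling). Fos was at 36.7 and 27.4 TPM in wild type and 619 and 629 TPM in the knockout (log2 change 4.26 ± 0.281, adjusted p = 3.37e-12), and Jun at 21.4 and 20.3 against 423 and 415 TPM (log2 change 4.27 ± 0.292, adjusted p = 6.33e-12). Nr4a1 was at 3.0 and 3.75 against 153 and 152 TPM (log2 change 5.14 ± 0.421, adjusted p = 1.99e-10). The wild type of day 11 held 360.5 and 372 TPM of Fos, below the knockout, and 652 and 649.9 TPM of Jun and 284 and 271 TPM of Nr4a1, above it. None of these 3 was called between the knockout and day 11 (log2 differences 0.77, -0.63 and -0.85), Fos by its size alone (adjusted p = 0.0499). The cytosolic chaperone gene Hsp90aa1 was the fall (404 to 198 mean TPM, log2 change -1.03). Hspa1a and Hspa1b are near-identical copies whose levels are uncertain. Summed granulosa markers, at 81.1 and 83.5 TPM in wild type and 1341 and 1459.6 TPM in the knockout, moved with these genes, and whether these transcripts came from oocytes or somatic cells was not tested.

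Stress and apoptosis genes are set beside all genes, of which 22.8% were higher and 6.35% lower (15.7% and 11.5% after rescaling). Of 26 p53, p63 and apoptosis genes 13 rose (11 higher and 4 lower after rescaling), with a median log2 change of 1.17 beside 0.36 for all genes. Gadd45g went from 1.85 and 0 to 137 and 94.6 TPM, Btg2 from 22.2 and 18.0 to 292 and 267 TPM and the cyclin-dependent kinase inhibitor gene Cdkn1a from 7.62 and 9.99 to 37.4 and 44.9 TPM. Trp63, the p53 relative that guards oocytes, was at 99.8 mean TPM in wild type and 49.8 in the knockout, and with Trp73, Pmaip1 and Perp it was lower on the rescaled values only. Among 25 genes of the unfolded protein and integrated stress response 7 rose, Atf3, Sesn2 and Ddit3 among them, and Chac1 and Slc7a11 fell (5 higher and 3 lower after rescaling). These counts lay near the shares of all genes, and the median log2 change was 0.30 beside 0.36 for all genes. Hspa5, the chaperone of the endoplasmic reticulum, was at 1551 and 1598 mean TPM.

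Structural and metabolic genes divided by member. Beside them, 22.8% of all genes were higher and 6.35% lower (15.7% and 11.5% after rescaling). Rises of the tubulin, cholesterol and histone lists did not exceed these shares, while falls of the tubulin and cholesterol lists did. Of 26 tubulin, actin and motor genes 5 rose and 6 fell (3 higher and 8 lower after rescaling). Tubb2a fell from 335 and 318 to 80.2 and 66.4 TPM and Kif17 from 115 and 119 to 27.5 and 28.7 TPM, whereas Tubb5 rose from 183 and 159.6 to 637 and 651 TPM and Tuba1a from 7.01 and 4.13 to 54.7 and 66.3 TPM. Of 16 cholesterol synthesis genes 2 rose and 3 fell, Insig1, which restrains the pathway, among them, from 681 and 665 to 224 and 242 TPM (1 higher and 5 lower after rescaling). Of 11 glycolysis and glucose uptake genes 5 rose and none fell, with Slc2a1, a glucose transporter, at 13.8 and 11.5 against 53.5 and 50.8 TPM (4 higher and 0 lower after rescaling). None of 40 respiratory chain and ATP synthase genes was called as deposited (1 was lower after rescaling, Ndufv3), and their median log2 change was 0.11. Atp5e, at 2759.6 and 2905 against 2260.3 and 2368 TPM, and Cox6a1, at 1946 and 1901 against 1642 and 1629 TPM, were abundant in all 4 libraries. Uchl1, a deubiquitinase that is among the most abundant oocyte transcripts, fell from 13872 and 13506 to 4765 and 4758 TPM (log2 change -1.52 ± 0.0672, adjusted p = 2.19e-15), and it was the fall of its list of 12, in which Fbxo15 rose (1 higher and 2 lower after rescaling). Replication-dependent histone genes, poorly captured by selection for polyadenylated RNA, held 2 rises among 31, Hist1h1e and Hist1h4i. Hist1h4i (2.84 and 2.24 against 11.0 and 44.2 TPM) was called only with the second knockout library present (adjusted p = 0.094 without it), and Hist1h1e was not called without the first (adjusted p = 0.106). Of 11 genes often used as references 6 rose, 3 after rescaling.

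**Figure D4:**
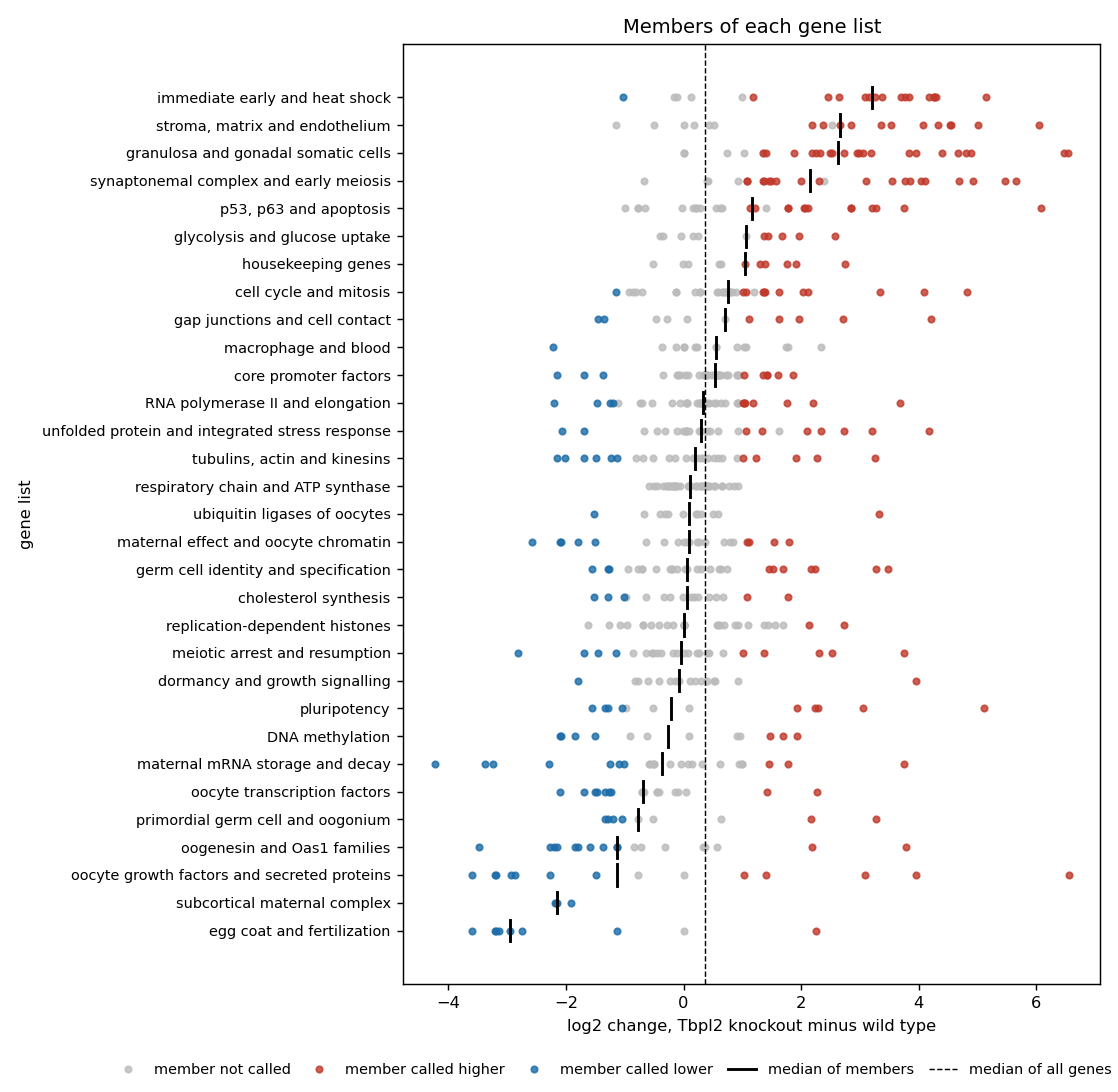
Log2 change (Tbpl2 knockout minus wild type, day 13) of each tested member of 31 gene lists, sorted by the median of the list (black bar). Red members were called higher, blue lower and grey were not called, and the dashed line is the median of all genes (0.36). Immediate early genes (median 3.20), somatic genes and early meiosis genes (median 2.15) lie at the top, and the egg coat (median -2.96) and subcortical complex genes (median -2.16) at the bottom.

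The 12 highest genes named by the rule held somatic and germ-cell genes. H2-Ab1, a class II histocompatibility gene, was at 0.24 and 0 TPM in wild type and 105 and 111 TPM in the knockout (log2 change 6.62 ± 0.717, adjusted p = 2.69e-08). Myl9, a smooth muscle myosin light chain gene, was at 0.79 and 1.79 against 212 and 199.99 TPM, and Serpinf1, a secreted serpin gene, at 0.96 and 0.26 against 112 and 103 TPM. Sparcl1, Cst12 and Wnt6 were also among them, and Sfrp2, a secreted Wnt antagonist, reached 52.5 and 47.6 TPM in the knockout and was listed at 0 in wild type. Mdk, Hsd3b1, Gadd45g, Col6a1 and Dmc1 are given above.

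The Nobox knockout served as a second reference, because Nobox is a homeobox factor of early follicles and Tbpl2 was low there as well. Between both knockouts 2103 of 12306 genes were called (17.1%), 816 higher in the Tbpl2 knockout (6.63%) and 1287 lower (10.5%). After rescaling 941 were higher (7.72%) and 997 lower (8.18%). Oocyte genes were higher in the Tbpl2 knockout. Of 9 egg coat genes 6 were higher and 1 lower, and all 4 measured genes of the subcortical complex were higher. Npm2 was at 8.16 and 1.98 TPM in the Nobox knockout and 867 and 884 TPM in the Tbpl2 knockout (log2 difference 7.39 ± 0.379, adjusted p = 5.99e-14). Zar1 (log2 difference 6.57 ± 0.211, adjusted p = 2.29e-18), Cpsf4l, Oas1e and Astl were the other 4 of the 5 highest. Zp1 was the member that was lower, at 1189 and 1218 TPM in the Nobox knockout and 498 and 439 TPM in the Tbpl2 knockout (log2 difference -1.36 ± 0.428, adjusted p = 0.0159). The 5 lowest, Fgfbp1, Sftpd, Pgam2, Sectm1b and S100a14, were high in the Nobox libraries, with Fgfbp1 at 167 and 199.8 TPM and listed at 0 in both Tbpl2 knockout libraries. In the early meiosis list 8 of 24 were higher in the Tbpl2 knockout and 0 lower (10 and 0 after rescaling). In the granulosa list 4 were higher and 3 lower (5 and 1 after rescaling), beside summed levels of 1341 and 1459.6 TPM in the Tbpl2 and 1397 and 1440.2 TPM in the Nobox knockout.

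Against the mean of the 14 other knockouts of day 13, 2030 of 12306 genes were called (16.5%), 1643 higher (13.4%) and 387 lower (3.14%). After rescaling 1177 were higher (9.65%) and 670 lower (5.49%). This contrast does not use the wild type. The early meiosis list had 16 of 24 members higher and none lower (13 and 0 after rescaling). Dmc1, at 199 and 253 TPM, was above all 28 libraries of the other knockouts, whose highest value was 181 TPM (log2 difference 3.81 ± 0.227, adjusted p = 7.54e-13). It was at 174 and 181 TPM in the Dynll1 and 138 and 128 TPM in the Ybx3 knockout. High levels of Dmc1 were thus not confined to the Tbpl2 knockout. Shh, which encodes the signal Sonic hedgehog, was at 16.9 and 24.9 TPM in the Tbpl2 knockout and at most 1.56 TPM in the other knockouts (log2 difference 3.96 ± 0.323, adjusted p = 2.32e-10). H2-Ab1, Mdk and Scarna8 were also above every other library. Such a position was a condition of the rule that named these 5 genes. Mdk, at 283 and 288 TPM, was at 196.5 and 172.6 TPM in the Dynll1 knockout and at 0 and 229.6 TPM in the Sohlh1 knockout. H2-Ab1, at 105 and 111 TPM, reached 68.2 TPM in a Ybx3 knockout library, so high levels of both were not confined to the Tbpl2 knockout. Scarna8, a small Cajal body RNA gene, was at 15.1 and 12.0 TPM, and at most 1.39 TPM in the other knockouts. Such small RNAs are not polyadenylated as a rule, and reads of a host transcript were not separated.

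The 5 genes lowest against the other knockouts were below all 28 of their libraries, which the rule that named them required. Sorcs3, a sorting receptor gene, was at 0.42 and 0.93 TPM against a median of 8.87 TPM over those libraries (log2 difference -2.62 ± 0.287, adjusted p = 4.18e-08). Efna3, an ephrin gene, was at 2.66 and 1.62 against a median of 12.9 TPM (log2 difference -2.23 ± 0.524, adjusted p = 0.00111), and Sema4d, a semaphorin gene, at 6.65 and 10.5 against 26.0 TPM (log2 difference -1.46 ± 0.172, adjusted p = 1.45e-07). Tnik and Mb21d2 complete the 5. Oocyte genes were lower than this mean in part: 4 of 9 egg coat genes and 1 of 4 subcortical complex genes (6 and 3 after rescaling). The summed egg coat level of the Tbpl2 knockout, 2930.0 TPM, was below that of 11 other knockouts and above that of 3.

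**Figure D5:**
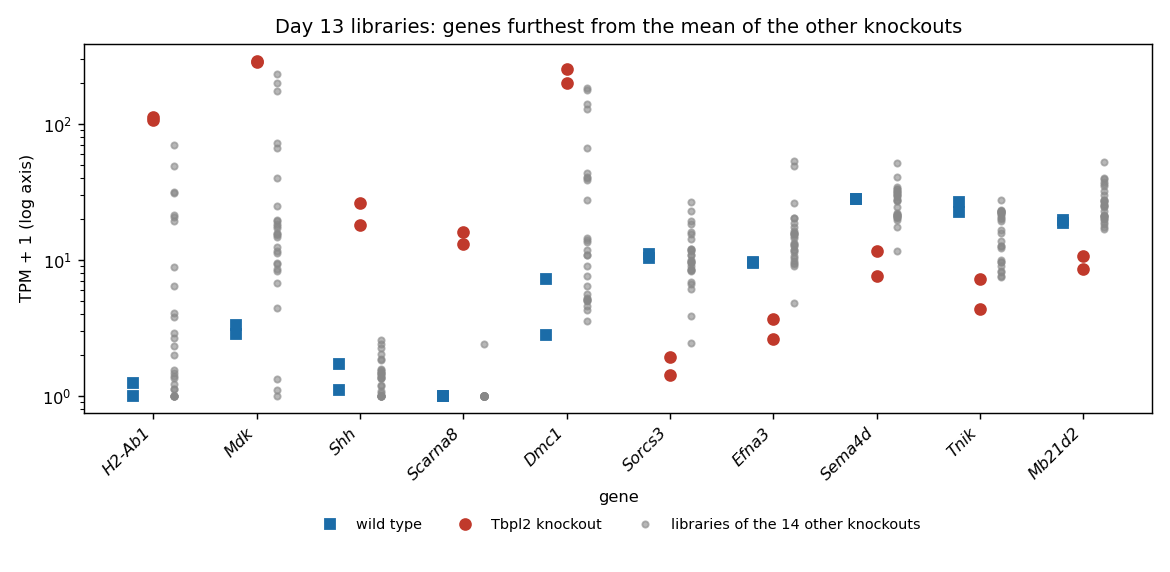
Level (TPM + 1, log axis) of the 5 highest and 5 lowest genes of the Tbpl2 knockout against the mean of the other knockouts, in the day 13 libraries. Squares are the 2 wild-type libraries, red points the 2 Tbpl2 knockout libraries and grey points the 28 libraries of the 14 other knockouts. Both red points lie outside the grey ones for all 10 genes, which the rule that chose them required.

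The knockout of day 13 had levels near those of the wild type of day 11 for many oocyte genes, which was seen in the values and then tested in the same model, a contrast added after the data were seen. Between these groups 1176 of 12306 genes were called (9.56%), 850 higher in the knockout (6.91%) and 326 lower (2.65%). After rescaling 1124 were called (9.22%), 804 higher (6.59%) and 320 lower (2.62%). The groups differ in age as well as genotype, which cannot be told apart here. None of the 9 egg coat genes and none of the 4 measured subcortical complex genes was called, which does not show that they were equal. Padi6 was at 4245 and 4138 TPM at day 11 and higher in the knockout by less than the size threshold (log2 difference 0.64 ± 0.121, adjusted p = 0.000337), and Nlrp4f was lower by less than it (log2 difference -0.76 ± 0.248, adjusted p = 0.0282). Zp3 was at 1943 and 1843 TPM in the wild type of day 11 and 2108 and 2088 TPM in the knockout, Npm2 at 805 and 715 TPM against 867 and 884 TPM, and Miox at 134 and 144 TPM against 151 and 118 TPM. Zar1 was higher in the knockout (log2 difference 1.43 ± 0.211, adjusted p = 1.62e-05). The granulosa list held 2 genes that were higher and none lower, with summed levels of 1793 and 1794 TPM at day 11 and 1341 and 1459.6 TPM in the knockout.

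Early meiosis genes were higher than at day 11. Of 24 tested 13 were higher in the knockout than in the wild type of day 11 and none was lower. Dmc1 was at 13.2 and 20.2 TPM there (log2 difference 3.70 ± 0.311, adjusted p = 2.39e-09), Spata22 at 22.5 and 16.5 TPM (log2 difference 2.84 ± 0.346, adjusted p = 1.07e-06), and the cyclin gene Ccne2 at 13.9 and 12.6 TPM (log2 difference 3.57 ± 0.219, adjusted p = 1.03e-11). Dmrt1 was at 2.86 and 5.39 TPM at day 11 and 112 and 107 TPM in the knockout (log2 difference 4.47 ± 0.318, adjusted p = 1.18e-10).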

How the data were processed

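Polyadenylated RNA of sorted in vitro oocytes was sequenced. Per the submitters' processing notes, STAR 2.6.0, featureCounts 1.6.0 and the build mm10 were used, and the authors deposited TPM, with 1 value per gene symbol and library. TPM do not record depth, so counting precision is unknown. The table used here has 15163 rows, and the incomplete last row and 22 names that read as dates were dropped. Of the 15140 genes kept 14555 matched GENCODE M21 by name and 585 did not. Nearly all lie on chromosomes 1 to 5 and 10 to 19, and genes elsewhere were not analysed here. Left unused were 80 further columns that match none of the samples.

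log2(TPM + 1) was fitted with limma 3.58.1 (R 4.3.3, trend and robust options) over 42 in vitro oocyte libraries in 21 groups (21 residual degrees of freedom), for genes that reached 1 TPM in 2 or more libraries. The 1 added understates changes of low genes. The Benjamini-Hochberg adjustment ran over all genes tested. Calls needed a log2 change of 1 or more in size together with an adjusted p under 0.05, and ± gives the standard error. The spread is shared over groups because each holds 2 libraries. The procedure was tested on simulated data. Replicates correlated at r of 0.967 or more across genes, but for the Sohlh1 knockout (0.873).

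Named genes are Tbpl2 and the core promoter factors, and up to 4 called members per list. To these were added the 12 highest and 12 lowest called genes whose groups did not overlap and whose higher mean was at least 10 TPM. Each direct contrast gave 5 and 5 by the same rule. Predicted, pseudogene and clone names were left out. Other list members are given by their means. The comparison, the 31 lists and the tests were chosen with earlier results of these data known, and lists were counted, not tested. Alternatives were another pseudocount, other filters, a replicate block, rescaling, other sets of libraries and leaving out each library.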

Additional observations from a re-analysis of the deposited data

How the results depend on the processing

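Leaving out each library of the groups compared in turn, with the lone library assumed to vary like the other groups, gave 3181 to 3329 called genes against wild type (2488 to 2627 higher, 693 to 720 lower). It gave 1752 to 1823 against the Nobox knockout (653 to 723 higher, 1078 to 1120 lower), 1792 to 1810 against the other knockouts, where only the Tbpl2 knockout libraries were left out (1456 to 1467 higher, 325 to 354 lower), and 987 to 1278 against the wild type of day 11 (707 to 879 higher, 280 to 399 lower). Rescaling raised the genes that were lower than wild type to 1401 and those lower than the other knockouts to 670. TATAA in place of TATAAA gave motif shares of 6.33% of lower, 3.72% of higher, 3.64% of not called and 3.83% of all genes, and TATAAA anywhere in the promoter on either strand gave 12.1%, 9.8%, 10% and 10.1%. Every other alternative kept these counts within 1.5 times, and no named gene that was called reversed. Of 159 named genes with a value against wild type 136 kept their direction and side of the threshold throughout. With 0.1 added to TPM, Tbpl2, Gtf2a1l, Eif4e1b, Oas1e, Oosp2, Pfkp, Gusb and Sall4 missed the threshold, each by its adjusted p and not by its size. After rescaling Tbpl1, Gtf2h3, Taf2, Taf4b and Srebf2 were among those that missed it. Taf2, Mb21d2 and Pfkp missed it without the first wild-type library, Srebf2, Slc16a3 and Hist1h1e without the second, Mb21d2, Slc16a3 and Hist1h1e without the first knockout library, and Pfkp and Hist1h4i without the second. The replicate numbers of the labels are not stated to pair libraries, and the differences between replicates correlated at -0.00957 across 12306 genes between wild type and knockout. A replicate block gave 3584 called genes (2807 higher, 777 lower) against wild type and 2099 against the Nobox knockout. With 2 libraries a group and no depth, small changes and low genes are the least certain.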
